A study of Mus musculus with 6 samples.

Results

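The genes described are 10 keratins of suprabasal and stressed stratified epithelium, taken from a list of symbols: *Krt1*, *Krt10*, *Krt4*, *Krt13*, *Krt6a*, *Krt6b*, *Krt16*, *Krt78*, *Krt79* and *Krt80*. The symbols were matched through the GENCODE vM39 annotation of the mouse genome GRCm39, which found all 10 among the 47643 gene IDs of the count files. The annotation holds 53 protein-coding keratin genes in all. The samples were organoids of the mouse submandibular salivary gland (mSGOs), which adult gland cells form when they are plated in Matrigel. They came from 3 female C57BL/6 mice aged 8 to 12 weeks, and organoids of each mouse were collected on day 5 and on day 7, which gave 6 libraries. Both groups were untreated and non-irradiated and were kept in the same WRY medium, which holds EGF, FGF2, N2, insulin, dexamethasone, Y27632 and conditioned media with R-spondin1 and Wnt3a. The cells were first grown as salivary spheres in medium without the Wnt supplements, then dissociated and replated, so the libraries describe replated cells of a whole gland and not a sorted population. 3′ messenger RNA reads were counted per gene, so that levels come from the transcript end alone and were not scaled by length.

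Keratins build the intermediate filaments of epithelial cells. Each filament needs a type I partner (here *Krt10*, *Krt13* and *Krt16*) and a type II partner (the other members). In stratified epithelia basal cells make *Krt5* and *Krt14*, and cells that leave the basal layer switch to *Krt1* and *Krt10* in the epidermis or to *Krt4* and *Krt13* in the lining of the mouth and oesophagus. *Krt6a*, *Krt6b* and *Krt16* are known as stress or wound keratins, induced in epidermis after injury and in hyperproliferation, and are constitutive in some oral epithelia and in parts of the hair follicle. *Krt78* and *Krt80* are less studied type II keratins linked to differentiation, and *Krt79* marks cells of the hair follicle infundibulum and sebaceous duct.

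The promoters of the members that moved are shown first, since genes of both directions are among them. RefSeq windows of GRCm38.p6, which cover 250 bases before the start site and 50 after it, were at hand for 4 of the 10 members, and the promoters of *Krt1*, *Krt4*, *Krt6a*, *Krt6b*, *Krt16* and *Krt80* were not analysed here. The 250 bases before the start are printed 5′ to 3′ on the minus strand, and capitals mark matches to TGANTCA (the AP-1 letters) or TATAAA (the TATA box letters). *Krt13* has 2 windows.
*Krt10*, chr11:99389365-99389614: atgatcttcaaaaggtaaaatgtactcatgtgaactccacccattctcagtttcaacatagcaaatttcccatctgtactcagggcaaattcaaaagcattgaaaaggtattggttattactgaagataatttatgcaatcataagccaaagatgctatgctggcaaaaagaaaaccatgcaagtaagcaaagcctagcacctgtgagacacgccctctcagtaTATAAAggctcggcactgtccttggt
*Krt13*, first window, chr11:100121567-100121816: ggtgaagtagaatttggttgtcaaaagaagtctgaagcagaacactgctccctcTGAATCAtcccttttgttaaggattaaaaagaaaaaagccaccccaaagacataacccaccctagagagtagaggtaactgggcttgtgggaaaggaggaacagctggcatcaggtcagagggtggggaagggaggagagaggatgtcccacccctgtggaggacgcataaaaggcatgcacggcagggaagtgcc
*Krt13*, second window, chr11:100120578-100120827: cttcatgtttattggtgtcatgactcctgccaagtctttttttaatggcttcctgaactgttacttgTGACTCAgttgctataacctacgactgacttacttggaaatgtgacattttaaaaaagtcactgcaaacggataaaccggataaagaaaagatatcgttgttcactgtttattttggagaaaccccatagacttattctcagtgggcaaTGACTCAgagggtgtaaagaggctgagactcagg
*Krt78*, chr15:101954288-101954537: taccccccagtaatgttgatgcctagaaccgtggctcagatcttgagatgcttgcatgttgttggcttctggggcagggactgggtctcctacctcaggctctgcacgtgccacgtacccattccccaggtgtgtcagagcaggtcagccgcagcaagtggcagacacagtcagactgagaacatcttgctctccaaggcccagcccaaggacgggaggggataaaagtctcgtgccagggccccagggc
*Krt79*, chr15:101940325-101940574: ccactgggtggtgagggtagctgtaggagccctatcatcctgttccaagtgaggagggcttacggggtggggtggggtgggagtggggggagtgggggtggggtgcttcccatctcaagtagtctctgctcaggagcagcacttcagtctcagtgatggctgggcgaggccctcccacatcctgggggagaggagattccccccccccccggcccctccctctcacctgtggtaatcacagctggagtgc
Both strands of the whole 300-base windows were searched. *Krt10* had 1 match to TATAAA, which began 26 bases before the start, and none to TGANTCA. The first *Krt13* window had 1 match to TGANTCA, in the part of the window far from its start site. The second *Krt13* window, which lies downstream of the first on the minus strand, had 2 matches. The nearer of these was 34 bases before the start site of the second window, and the first window had no match that close. *Krt78* held ACGTG, the hypoxia response core, at 3 positions, 2 of which overlap, and *Krt79* held none of the 3 motifs. Of all 32851 RefSeq windows, 7.81% held TGANTCA, 13.6% TATAAA and 19.6% ACGTG. These matches describe letters only.

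The total count in genes lay between 1918198 and 2837397 per library, and a count of 0 in a library allows up to 3 counts, or 1.04 to 1.51 CPM (counts per 1000000 counts of the scaled library). Intervals and such limits cover counting error only. Entries that name no gene took 13.7% to 14.4% of reads at day 5 and 9.12% to 9.74% at day 7. All 6 markers of the labelled epithelium were detected, with a summed level of 13518 to 17380 CPM at day 5 and 10378 to 14973 CPM at day 7. Most of this sum was *Krt5* and *Krt14*, with 11606 to 15602 CPM at day 5 and 7962 to 12957 CPM at day 7. Markers of other cells were low: 0 of 3 erythroid genes had a count, the 6 macrophage genes summed to 8.03 to 10.7 CPM at day 5 and 9.30 to 13.9 at day 7 with *Adgre1*, *Lyz2* and *Csf1r* at 0, the 6 fibroblast genes to 0.360 to 0.502 and 1.04 to 1.96 CPM with *Col1a2*, *Col3a1* and *Lum* at 0, and the 5 endothelial genes to at most 1.00 CPM with *Cdh5* and *Tek* at 0. The 5 acinar genes with an ID summed to 5.02 to 10.1 CPM at day 5 and 9.97 to 25.0 at day 7, with *Prol1* and *Dcpp1* at 0. Of all these genes of other cells 1, a macrophage gene, passed the test of day used here, and the part of such cells in the results was not tested.

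Day 7 was compared with day 5 to ask which of these keratins differ between 5-day and 7-day mSGOs. The mucosal pair *Krt4* and *Krt13* both rose in every mouse, but not in step with each other. *Krt10* rose with almost no *Krt1*. *Krt6b* rose, while the far more abundant *Krt6a* and its type I partner *Krt16* did not pass the test. *Krt78* rose from a few counts, and *Krt79* fell. All 10 members passed the filter of at least 1 count in 2 libraries. By the quasi-likelihood test of edgeR, with an adjusted p under 0.05 and a log2 fold change beyond 0.6 in either direction, 6 of the 10 passed, 5 higher and 1 lower at day 7. Of all 15792 genes tested, 12.0% passed, 7.22% higher and 4.82% lower. The same 6 members did not overlap between the days, as did 31.0% of all genes tested (15.4% higher and 15.5% lower). In bulk RNA, fewer cells of a type and less RNA per cell cannot be told apart.

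**Figure D1:**
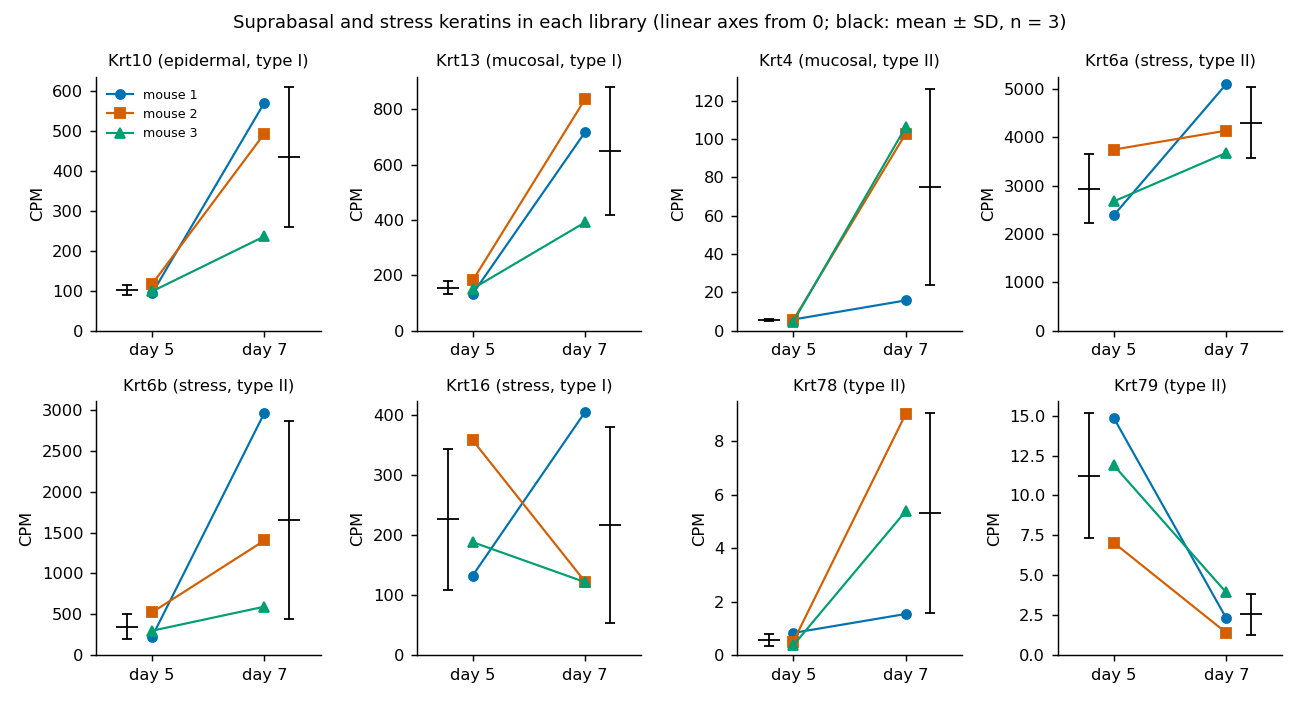
Level of 8 keratins in CPM (vertical axes, linear from 0) at day 5 and day 7, with 1 line per mouse and, in black, the mean ± SD of 3 libraries. Lines of all 3 mice rise in *Krt10*, *Krt13*, *Krt4*, *Krt6a*, *Krt6b* and *Krt78* and fall in *Krt79*, while *Krt16* rises in mouse 1 and falls in mice 2 and 3.

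*Krt10* is the type I keratin of the epidermal pair, made by suprabasal keratinocytes. *Krt10* (ENSMUSG00000019761, GRCm39 chromosome 11, 99276072 to 99280195) had 93.2, 116 and 98.3 CPM at day 5 in mice 1, 2 and 3, and 572, 494 and 236 CPM at day 7. The days did not overlap, and the lowest day 7 library, that of mouse 3, was still above every day 5 library. The mean went from 103 ± 12.2 to 434 ± 176 CPM (SD, n = 3), a fitted log2 change of 2.08 ± 0.26 (SE, adjusted p = 4.26e-05 by edgeR), or 4.24-fold. Within mice the level at day 7 was 6.13, 4.24 and 2.40 times that at day 5. The call held in all 17 alternative fits. Exons of *Krt10* overlap the predicted gene *Gm11940* on the opposite strand, and whether the counting used strand is not given in the sources used here.

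*Krt1*, the type II partner of *Krt10* in epidermis, was close to undetected. *Krt1* (ENSMUSG00000046834, chromosome 15, 101753861 to 101759229) had 0 counts in each day 5 library and 3, 0 and 1 counts at day 7, so no library exceeded the limit that a count of 0 allows. It did not pass the test (edgeR adjusted p = 0.237, from 0.177 to 0.463 among its alternatives), and no fold is given. Over the 6 libraries *Krt10* had 4129 counts and *Krt1* had 4. The other type II keratins of cornified skin, named after their counts were seen, were as low, with 1 count in *Krt2* and 0 in *Krt77*. *Krt9*, the type I keratin of sole skin, had 1 count.

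The mucosal pair rose at day 7 in every mouse. *Krt13* (ENSMUSG00000044041, chromosome 11, 100008153 to 100012392), its type I member, had 133, 181 and 152 CPM at day 5 and 718, 837 and 392 CPM at day 7. All 3 day 7 libraries were above day 5, again with mouse 3 the lowest. Its mean went from 155 ± 24.4 to 649 ± 231 CPM (SD, n = 3), a fitted log2 change of 2.07 ± 0.25 (SE, adjusted p = 2.48e-05 by edgeR). The rise was 5.41, 4.62 and 2.58-fold within mice 1, 2 and 3, the same order as in *Krt10*.

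*Krt4* (ENSMUSG00000059668, chromosome 15, 101826970 to 101833170), the type II member, was the scarcer of the pair. It had 5.77, 5.52 and 4.68 CPM at day 5, which are 14, 11 and 13 counts, and 15.7, 103 and 106 CPM at day 7. Here mouse 1 was low and mice 2 and 3 were high at day 7, and all 3 were above the day 5 libraries. The mean went from 5.33 ± 0.572 to 74.9 ± 51.3 CPM (SD, n = 3), a fitted log2 change of 3.80 ± 0.52 (SE, adjusted p = 0.000102 by edgeR). With robust = TRUE in the dispersion step the call was lost (edgeR adjusted p = 0.0606). The smallest edgeR adjusted p values came from 2 settings, no filter (9.65e-34) and the mouse as a block (2.92e-26). The log2 fold changes there were 3.80 and 3.55, so the fold was no larger than in the main fit. In *Krt10* and *Krt13*, too, these 2 settings gave the smallest values, so such small p values are not particular to *Krt4*. Their cause was not tested. The rise was 2.72-fold in mouse 1, 18.6-fold in mouse 2 and 22.7-fold in mouse 3. In mouse 1 the ratio of *Krt4* to *Krt13* counts was 0.0435 at day 5 and 0.0219 at day 7, and in mice 2 and 3 it went from 0.0305 to 0.123 and from 0.0309 to 0.271. The order of the mice at day 7 was therefore not the same for the partners, and the ratio overlapped between the days.

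Among the stress keratins *Krt6a* was the most abundant and *Krt6b* the one that passed the test. *Krt6a* (ENSMUSG00000058354, chromosome 15, 101598345 to 101602742) had 2387, 3743 and 2673 CPM at day 5 and 5097, 4135 and 3675 CPM at day 7. Day 7 of mouse 3 was below day 5 of mouse 2, so the days overlapped, although each mouse was higher at day 7 (2.14, 1.10 and 1.37 times). The log2 fold change was 0.55 ± 0.21 (SE, adjusted p = 0.102 by edgeR, unadjusted p = 0.0184), under the fold limit of 0.6 as well. Without the day 7 library of mouse 3 it passed (0.65, edgeR adjusted p = 0.0250, from 0.0250 to 0.834 among its alternatives).

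*Krt6b* (ENSMUSG00000023041, chromosome 15, 101584458 to 101588722) had 224, 522 and 296 CPM at day 5 and 2969, 1403 and 592 CPM at day 7. The days did not overlap, but the day 7 library of mouse 3 was only a little above the day 5 library of mouse 2. The mean went from 347 ± 156 to 1655 ± 1208 CPM (SD, n = 3), a fitted log2 change of 2.25 ± 0.41 (SE, adjusted p = 0.00127 by edgeR). Within mice the rise was 13.3, 2.69 and 2.00-fold. Without the day 7 library of mouse 1 the log2 fold change was 1.53 (edgeR adjusted p = 0.00104). With robust = TRUE the call was lost (edgeR adjusted p = 0.138). The smallest edgeR adjusted p values again came with no filter (2.68e-24) and with the mouse as a block (8.99e-15).

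The copies *Krt6a* and *Krt6b* differ at the 3′ end, where the reads lie. Their transcripts are 90.5% identical over their whole length, but 68.3% over the last 500 bases, and no run of 30 or more bases is shared there. *Krt6a* shares at most 35 bases with another transcript (*Gm62151*) and *Krt6b* at most 36 (*Gm5478*, 2 counts in all). Summed and tested as 1 gene, the copies rose by 0.86 on the log2 scale (edgeR adjusted p = 0.0260). Opposite-strand predicted genes overlap exons of both.

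*Krt16*, the type I partner of the *Krt6* keratins, moved in opposite directions in different mice. *Krt16* (ENSMUSG00000053797, chromosome 11, 100136917 to 100139795) had 132, 358 and 188 CPM at day 5 and 405, 122 and 121 CPM at day 7. Mouse 2 was the high library at day 5 and mouse 1 at day 7, and the days overlapped. Day 7 was 3.06 times day 5 in mouse 1, 0.341 times in mouse 2 and 0.646 times in mouse 3. The means were 226 ± 118 and 216 ± 164 CPM (SD, n = 3), with a fitted log2 change of -0.06 ± 0.39 (SE, adjusted p = 0.969 by edgeR, from 0.0355 to 1.00 among its alternatives). Without the day 7 library of mouse 1 *Krt16* was lower and past the threshold (-0.89, edgeR adjusted p = 0.0355). Without the day 5 library of mouse 2 the value was 0.43, and without the day 7 library of mouse 2 or 3 it was 0.23, none of them past the threshold. The last 500 bases of *Krt16* share up to 107 bases with *Gm11597*, which had 0 counts, and up to 55 with *Krt14* and *Krt17*, so the assignment of reads from those stretches is uncertain.

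Of the remaining members, *Krt78* rose and *Krt79* fell. *Krt78* (ENSMUSG00000050463, chromosome 15, 101854436 to 101862722) had 2, 1 and 1 counts at day 5 and 4, 26 and 11 counts at day 7. Like *Krt4*, it was low in mouse 1 and higher in mice 2 and 3 at day 7. The summed counts gave a 9.79-fold rise (exact binomial 95% counting interval 3.55 to 37.6), and the fitted log2 fold change was 3.16 ± 0.75 (SE, adjusted p = 0.00881 by edgeR, from 9.96e-05 to 0.0998 among its alternatives). The call was lost without the day 5 library of mouse 2 (3.11) or mouse 3 (2.89) and without the day 7 library of mouse 2 (2.47).

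*Krt79* (ENSMUSG00000061397, chromosome 15, 101837767 to 101848759) had 36, 14 and 33 counts at day 5 and 6, 4 and 8 counts at day 7. These are 14.8, 7.03 and 11.9 CPM against 2.30, 1.39 and 3.92 CPM, with no overlap and a fall in each mouse to 0.155, 0.198 and 0.329 times the day 5 level. The log2 fold change was -2.20 ± 0.44 (SE, adjusted p = 0.00288 by edgeR), and the call held in all 17 alternative fits. *Krt80* (ENSMUSG00000037185, chromosome 15, 101245325 to 101268043) had 0, 1 and 0 counts at day 5 and 0, 2 and 0 at day 7, at or under the limit that a count of 0 allows, and gives no comparison.

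The difference between the mice was set beside that of other genes. Where the mean was 10 CPM or more and each library of the day had a count, the highest library was a median of 1.23 times the lowest at day 5 (8150 genes) and 1.56 times at day 7 (8171 genes). At day 7 this ratio was 6.76 in *Krt4*, 5.02 in *Krt6b*, 3.34 in *Krt16*, 2.42 in *Krt10*, 2.14 in *Krt13* and 1.39 in *Krt6a*. Of these 6, *Krt6a* was below the median of all genes, and 99.3% of genes had a lower ratio than *Krt4*. At day 5 it was 1.23 in *Krt4*, 1.25 in *Krt10*, 1.36 in *Krt13*, 1.57 in *Krt6a*, 2.34 in *Krt6b* and 2.70 in *Krt16*. *Krt4* and *Krt10* were near the median at day 5 with 49.9% and 53.2% of genes below them, *Krt13* was above 71.9% of genes, and *Krt6b* and *Krt16* were above 98.7% and 99.3%. *Krt4* had only 14, 11 and 13 counts at day 5, a mean of 5.33 CPM. Its day 5 ratio thus rests on few counts and says little on how alike the mice were. *Krt6a*, too, was above most genes at day 5.

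Summed levels gave the groups as such. The epidermal pair, in effect *Krt10*, rose by 1.99 on the log2 scale. The mucosal pair went from 161 ± 24.4 to 724 ± 221 CPM (SD, n = 3) and rose by 2.14. Its sum was mostly *Krt13*, with means of 155 and 649 CPM against 5.33 and 74.9 CPM for *Krt4*. Values of this sum, here and below, therefore follow mainly *Krt13*. The stress keratins had 2743, 4623 and 3158 CPM at day 5 and 8471, 5660 and 4388 CPM at day 7, a log2 difference of 0.80 with overlapping days. Their sum was mostly *Krt6a*, with means of 2934.5 and 4302 CPM, against 347 and 1655 for *Krt6b* and 226 and 216 for *Krt16*. Values of the stress sum, here and below, therefore follow mainly *Krt6a* and *Krt6b*, while *Krt16* itself fell in mice 2 and 3. All 3 groups were higher at day 7 in 3 of 3 mice. The exact two-sided permutation p was 0.1 for the epidermal and the mucosal pair, the smallest that 3 against 3 libraries allow, and 0.2 for the stress keratins. The exact sign-flip p within mice was 0.25, the smallest for 3 pairs, in each group. Over the family of 10 comparisons of summed levels, ratios and shares the adjusted permutation p was 0.125, 0.125 and 0.222.

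Ratios within a library do not depend on its scaling. The basal pair *Krt5* and *Krt14*, against which the groups were read, had 11606 to 15602 CPM at day 5 and 7962 to 12957 CPM at day 7, with overlapping days (log2 difference -0.36). Per basal keratin count there were 0.00711 to 0.00803 epidermal pair counts at day 5 and 0.0442, 0.0621 and 0.0207 at day 7 in mice 1, 2 and 3. The mucosal pair went from 0.0113 to 0.0120 at day 5 to 0.0566, 0.118 and 0.0436 at day 7. The stress keratins, with 0.228 to 0.296 at day 5, reached 0.654, 0.711 and 0.384. In these 3 ratios the days did not overlap, and the log2 differences were 2.35, 2.50 and 1.16 (exact permutation p = 0.1 each, adjusted 0.125).

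**Figure D2:**
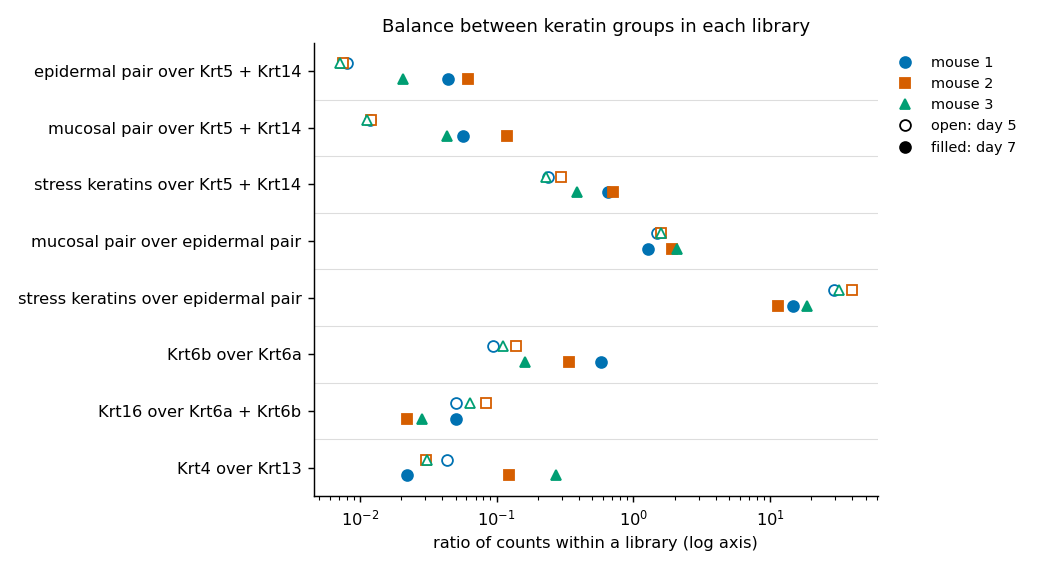
Ratios of summed counts within each library (horizontal log axis), with open symbols for day 5, filled symbols for day 7 and 1 symbol shape per mouse. The first 3 ratios move up at day 7 in every mouse, the ratio of stress keratins to the epidermal pair moves down, and the ratio of *Krt4* to *Krt13* overlaps between the days.

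The groups were also compared with each other. For each epidermal pair count there were 29.4, 39.7 and 32.1 stress keratin counts at day 5 and 14.8, 11.5 and 18.5 at day 7, lower in 3 of 3 mice (log2 difference -1.19, exact permutation p = 0.1, adjusted 0.125). The ratio of the mucosal to the epidermal pair lay between 1.49 and 1.60 at day 5 and reached 1.28, 1.90 and 2.10 at day 7, with overlap (log2 difference 0.14, exact permutation p = 0.5). Between the copies, *Krt6b* counts per *Krt6a* count went from 0.0936, 0.139 and 0.111 to 0.582, 0.339 and 0.161 (log2 difference 1.49, exact permutation p = 0.1, adjusted 0.125). *Krt16* counts per count of *Krt6a* and *Krt6b* were 0.0507 to 0.0839 at day 5 and 0.0221 to 0.0502 at day 7, so that the days did not overlap, although mouse 1 was nearly level at 0.0507 and 0.0502. Over all keratins the type II to type I ratio lay between 1.01 and 1.13 at day 5, with 1.36, 1.38 and 0.818 at day 7.

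Keratin genes as a whole held 1.72% to 2.38% of all counts at day 5 and 1.86% to 2.37% at day 7. Of these keratin counts the 10 members took 17.6%, 21.6% and 17.3% at day 5 and 38.8%, 38.9% and 24.4% at day 7. The share was higher in 3 of 3 mice and did not overlap, with a mean difference of 15.2 percentage points (exact permutation p = 0.1, adjusted 0.125). *Krt6a* alone held 13.5% to 16.4% at day 5 and 17.5% to 22.6% at day 7. *Krt6b* went from 1.32% to 2.28% at day 5 to 11.8%, 7.67% and 2.82% at day 7. *Krt5* held 27.9% to 32.1% of keratin counts at day 5 and 16.1% to 21.8% at day 7. *Krt14* held 36.2% to 40.3% at day 5 and 29.6%, 22.5% and 38.3% at day 7, with overlap. A share also depends on the other keratins, and the levels of *Krt5* and *Krt14* did not pass the test.

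**Figure D3:**
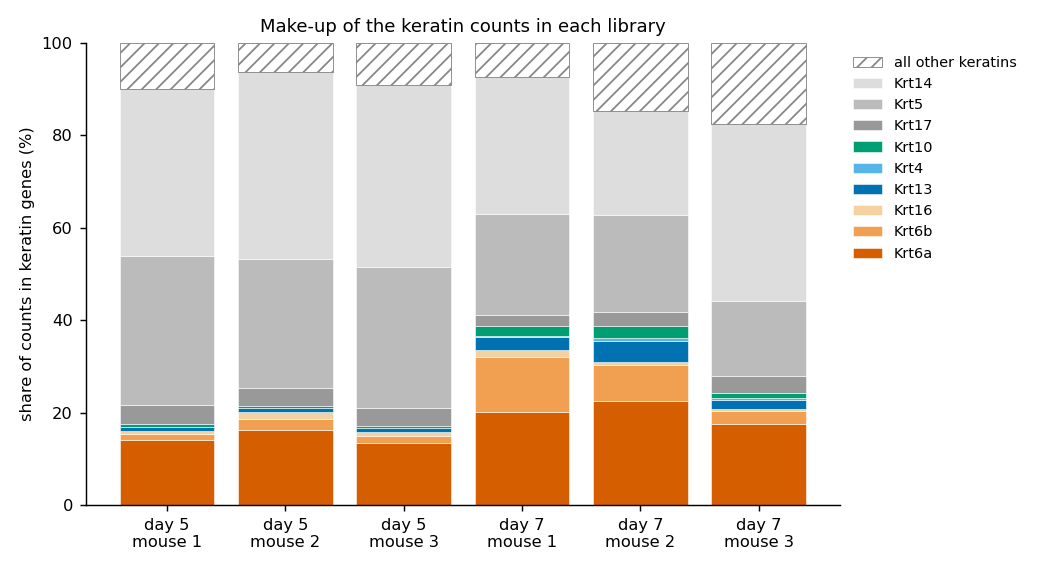
Share of all keratin counts (vertical axis, percent) held by single keratins in each of the 6 libraries, with stress keratins in orange, the mucosal pair in blue, *Krt10* in green and *Krt17*, *Krt5* and *Krt14* in grey. *Krt6b* holds 1.32% to 2.28% at day 5 and 2.82% to 11.8% at day 7, and *Krt6a* holds 13.5% to 16.4% and 17.5% to 22.6%.

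The type II genes lie in a row on chromosome 15, where *Krt4*, *Krt79* and *Krt78* follow each other with gaps of 4596 and 5676 bases, all on the minus strand. *Krt4* and *Krt78* rose, and *Krt79* between them fell. *Krt6b* and *Krt6a* are 9622 bases apart and *Krt5* follows after 12762 bases, with log2 fold changes of 2.25, 0.55 and -0.49. On chromosome 11 *Krt13* lies beside *Krt15* and *Krt19*, with gaps of 10191 and 4860 bases, and all 3 rose. *Krt14*, *Krt16* and *Krt17*, further along, did not pass.

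**Figure D4:**
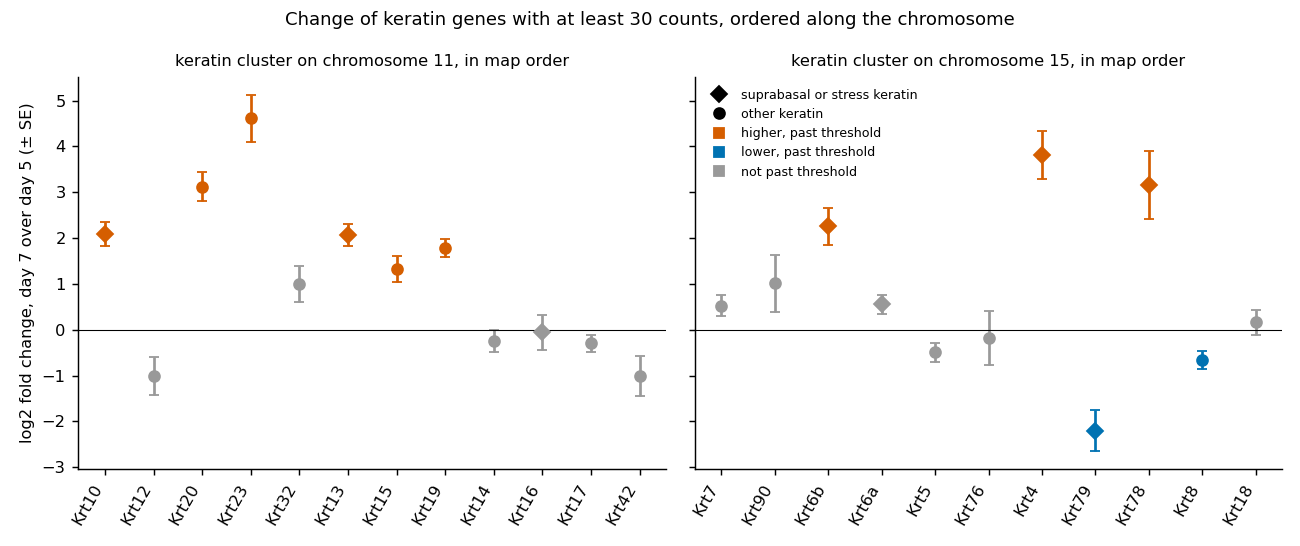
Log2 fold change ± SE of day 7 over day 5 (vertical axis) for keratin genes with at least 30 counts, in the order of the genes along chromosomes 11 and 15 (horizontal axes), with diamonds for the suprabasal and stress keratins. *Krt79* (-2.20) stands between *Krt4* (3.80) and *Krt78* (3.16).

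Among the 43 keratin genes outside the list, 21 were tested, 4 rose and 1 fell, where 7.22% and 4.82% of all genes tested did. *Krt23* (4.61) and *Krt20* (3.12, a keratin of intestinal and urothelial cells) rose most on the log2 scale, from 2.02 to 51.3 and from 4.24 to 37.6 CPM. *Krt19* (1.78 ± 0.21 SE, edgeR adjusted p = 1.56e-05), of simple and ductal epithelia, and *Krt15* (1.32 ± 0.28 SE, edgeR adjusted p = 0.00441), of basal cells, rose too. *Krt8*, of simple epithelium, fell (-0.65 ± 0.20 SE, edgeR adjusted p = 0.0374), a call lost in the fits without any 1 day 5 library, without the day 7 library of mouse 2 and with glmTreat (edgeR adjusted p = 0.0916 to 0.632). Its partner *Krt18* (0.16), the basal pair *Krt5* (-0.49) and *Krt14* (-0.24), and *Krt17* (-0.30), a further stress keratin, did not pass. *Krt76*, an oral suprabasal type II keratin, had 7.42, 20.6 and 10.8 CPM at day 5 and 26.8, 2.08 and 4.41 at day 7, with mouse 2 high at day 5 and mouse 1 at day 7 as in *Krt16*, and did not pass (-0.18, edgeR adjusted p = 0.891).

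Genes that work with these keratins were read from lists. Of 18 tested genes of keratin-binding and desmosomal partners, 6 rose and 0 fell past the threshold. By the same threshold 7.22% of all genes tested rose and 4.82% fell. The median log2 fold change was 0.76 in the list against -0.01 over all genes tested. *Sbsn*, a secreted protein of suprabasal cells, went from 9.78 ± 1.92 to 35.2 ± 14.5 CPM (SD, n = 3, change of 1.86 on the log2 scale, edgeR adjusted p = 0.000813). The plakins periplakin (*Ppl*, 1.19) and envoplakin (*Evpl*, 1.01), which tie keratin filaments to the cornified envelope, and the desmosomal plakophilin *Pkp3* (0.98) rose too. *Dsp*, the desmoplakin that anchors keratin filaments at desmosomes, did not pass (0.47, edgeR adjusted p = 0.115).

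Of 24 tested regulators with a known role in stratified epithelial differentiation or keratin gene control, 7 rose and 1 fell (median 0.45). Over all genes tested, 7.22% rose and 4.82% fell (median -0.01). *Cebpb* (0.82) and *Ovol1* (1.47), both linked to the exit from the basal state, rose. *Prdm1*, a repressor that acts late in epidermal differentiation, had 2 counts on day 5 and 107 on day 7, which is 51.1 times as many per scaled library (95% counting interval 13.8 to 427). Its day 7 counts were 68, 35 and 4 in mice 1, 2 and 3. The 1 regulator that fell, named after its value was seen, was *Fosl1*, an AP-1 subunit (-1.22, edgeR adjusted p = 0.0237). Another AP-1 subunit of the list, *Junb*, also named after its value was seen, went the other way (1.06, edgeR adjusted p = 0.0334). Its days overlapped, and in mouse 3 day 7 was 0.815 times day 5. *Klf4*, with the highest level among those that did not pass, had -0.08 (edgeR adjusted p = 0.878). Of 9 tested genes of sebaceous and infundibular cells, read because *Krt79* marks them, 1 rose (*Scd1*, 0.67) and 1 fell (*Cst6*, -1.83, with 38 counts at day 5 and 11 at day 7), and *Sox9* did not pass (0.28). Others of this list are named after their counts were seen. Over the 6 libraries *Pparg*, *Awat2* and *Defb6* had only 2, 3 and 3 counts, which gives no comparison. *Awat1* and *Mc5r* had 0 and were not tested. *Lrig1*, *Mgst1* and *Plin2* had 168, 899 and 1572 counts and did not pass. Whether *Krt79* marks such cells here was not tested. The 9 tested genes are too few to set against the 7.22% and 4.82% of all genes tested.

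The genes most like each group in pattern were sought among 7998 named protein-coding genes whose mean was 10 CPM or more, by Pearson's r of log2 CPM over the 6 libraries, which share the day difference. For the mucosal pair they were *Spink5* (r = 0.998), *Dynlt3* (0.998) and *Mall* (0.997). *Spink5*, an inhibitor of epidermal kallikreins, had 127, 157 and 143 CPM at day 5 and 561, 635 and 359 at day 7. For the stress keratins they were *Dsc2* (r = 0.999), *Csrp2* (0.990) and *Papss1* (0.988). *Dsc2*, a desmosomal cadherin, had 264, 367 and 282 CPM at day 5 and 566, 429 and 355 at day 7, high in the same libraries as the stress keratin sum. For the epidermal pair they were *Casp6* (r = 0.996), *Ptges* (0.996) and *Sprr2g* (0.995). With 6 libraries and many genes such values are a description of order and size only.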

How the data were processed

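Raw counts of reads, whole numbers listed by Ensembl gene ID in 1 file a library, were deposited by the authors. They were made from Lexogen QuantSeq 3′ reads aligned to GRCm39 and are not normalised. The submitters' processing notes name edgeR. The aligner, annotation release and strand setting are not given in the sources used here. The last 5 entries of each file name no gene and entered neither library sizes nor tests.

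Gene names came from GENCODE vM39 by exact ID, which matched 43465 of 47643 IDs (91.2%). A gene was tested where 2 or more libraries had 1 count or more, day 7 against day 5, with TMM scaling and edgeR 4.0.16 under R 4.3.3 by its quasi-likelihood F test (glmQLFit, robust = FALSE, day as the only term), with Benjamini-Hochberg adjustment over all 15792 genes. The filter and thresholds follow the methods of the study. SE is the log2 fold change over the root of F. CPM are counts per 1000000 of the TMM-scaled library size. For patterns a prior count of 2 was added, also to each group sum. Summed levels, ratios and shares were compared by exact two-sided permutation over libraries. The code was tested on simulated data. DESeq2 1.42.0 and limma 3.58.1 gave alternatives, described in the closing section.

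Per the titles, a shared number marks a shared mouse, so the days are paired by mouse. Deviations from the day means correlated within the mice at 0.14, -0.10 and 0.16 over 8176 genes. 3′ ends were compared over the last 500 bases of the canonical transcripts for shared runs of at least 30 bases.

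The members, lists and tests were chosen with earlier results of these data known. The text names the 10 members, *Krt5*, *Krt14*, *Krt8*, *Krt18* and *Krt17*, up to 4 genes of each further list with the smallest p past the threshold, the most abundant gene of it not past, and 3 genes most like each of 3 groups. 1 gene that this rule gives is not reported here.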

Additional observations from a re-analysis of the deposited data

How the results depend on the processing

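The count of members past the threshold was 6 and ranged from 4 (robust = TRUE) to 7 over 17 alternatives, which were DESeq2 size factors, upper quartile or library totals as scaling, leaving out the ID with the most counts, no filter, filterByExpr, DESeq2's Wald test, limma voom with weights by day, robust = TRUE, glmTreat, the mouse as a block, and each library left out. Without 1 library it was 5 to 7. With the mouse as a replicate block it was 6, with log2 fold changes of 1.99 for *Krt10*, 3.55 for *Krt4*, 2.01 for *Krt13* and 2.01 for *Krt6b*, and no call of a member changed. *Krt6a* stayed under the fold limit in that paired fit (0.56, edgeR adjusted p = 0.0454). The count over all genes was 1901 and moved to 623 with glmTreat, to 2339 with the block and to 794 to 2575 without 1 library. It was 892, 794 and 890 without the day 5 library of mouse 1, 2 and 3, and 1045 without the day 7 library of mouse 2. With library totals only, 950 genes were higher and 1008 lower, against 1140 and 761 with TMM. No member turned its direction under a scaling. The value of *Krt16* (-0.06) reversed without the day 5 library of mouse 2 (0.43) and the day 7 library of mouse 2 (0.23) or 3 (0.23), that of *Krt14* (-0.24) without the day 7 library of mouse 2 (0.0074), and that of *Krt18* (0.16) without the day 7 library of mouse 3 (-0.20). Without 1 library these 3 ranged from -0.89 to 0.43, -0.41 to 0.0074 and -0.20 to 0.47. The cause was not tested.

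Without 1 library the log2 differences of summed levels ranged from 1.74 to 2.38 for the epidermal pair, 1.92 to 2.38 for the mucosal pair and 0.54 to 1.02 for the stress keratins, and the share of the members in keratin counts differed by 12.8 to 20.0 percentage points. With *Krt17* added the stress keratins differed by 0.65. At 4 counts or fewer over a day, as in *Krt1*, *Krt80* and *Krt78* at day 5, depth limits what can be said. These 3 genes were removed by filterByExpr, and *Krt1* and *Krt80* got no adjusted p from DESeq2.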
